A study of Rattus norvegicus with 12 samples.

Results

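The neurofilaments and the neuronal microtubule proteins were followed at the level of their transcripts and of the m6A peaks on those transcripts in the rat retina. The set holds 10 genes, picked by name, of the 22714 rows of the expression table, and each name matched 1 row. They are the neurofilament subunits Nefl, Nefm, Nefh and Ina, the microtubule-associated proteins Map1b, Map2 and Mapt, the tubulin-binding protein Stmn2, the neuronal tubulin Tubb3, and Agtpbp1, an enzyme that trims tubulin tails. Retinas were taken at 12 h from male Sprague-Dawley rats of 7 to 8 weeks whose optic nerve had been clamped for 10 s at 2 mm behind the eyeball (TON), or which had the same operation with no clamp (sham). Each sample pooled the retinas of 4 rats, with 3 sham samples (1 to 3) and 3 TON samples (4 to 6). Each sample gave an input RNA library and a library enriched with an antibody against m6A. The p-values measure the spread between these pools, and the retina is a mix of cells in which ganglion cells, whose axons form the optic nerve, are a small share.

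Neurofilaments are the intermediate filaments of long axons. The light, medium and heavy subunits and alpha-internexin assemble into 1 polymer that sets axon calibre, and in the retina they mark ganglion cells above all, with horizontal cells also carrying them in rodents. Microtubules run beside them as tracks for transport: Map2 lies along microtubules of dendrites, tau (Mapt) along those of axons, and Map1b in growing and adult axons. N6-methyladenosine (m6A) is a mark on internal adenosines of mRNA that influences how long a transcript lasts and how well it is translated, and its peaks tend to lie in long exons and near stop codons.

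The 6 input libraries held an estimated 3162861 to 4757806 fragments over the genes of the table, and the members rested on 180 (Nefm) to 17946 (Map1b) scaled fragments per library. The peak lists held 12424 to 14233 peaks, which the authors called in each sample with MACS, and the read depth of the enriched libraries is unknown. The lists of TON 4 and TON 6 differed from the others, with a median peak length of 287 and 300 bases against 183 to 201, and a median fold enrichment of 8.56 and 9.63 against 6.63 to 7.21. Among the input libraries, markers of the ocular surface epithelium summed to 187 FPKM in sham 1 against 2.80 to 27.5 in the others, and those of the lens to 3949 FPKM in sham 1 against 1282 to 2427. Those of skeletal muscle summed to 12.2, 53.6 and 3.68 FPKM in TON 4 to 6 against 2.22 to 2.83 FPKM in sham, so every TON library lay above every sham library. All 10 ganglion cell markers and all 6 horizontal cell markers of the lists used were present in the table.

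Promoter sequence from RefSeq (rat assembly GRCr8) matched 5 of the 10 members: Ina, Map1b, Map2, Agtpbp1 and Tubb3. The Map2 window lies on the plus strand and has 33.3% G and C, whereas Map2 lies on the minus strand in the build of the peak files. Whether this window is the promoter of the Map2 transcript measured here was not tested. The windows of Tubb3, whose only peak lay at the start of the gene, and of Ina, the neurofilament subunit with a window, are shown 5′ to 3′, with 250 bases before the start in lower case and the first 50 transcribed bases in capitals. The Tubb3 window is chr19:68365437-68365736 on the plus strand and the Ina window chr1:255837879-255838178 on the plus strand, in GRCr8 and not in the build of the peak files.
Tubb3: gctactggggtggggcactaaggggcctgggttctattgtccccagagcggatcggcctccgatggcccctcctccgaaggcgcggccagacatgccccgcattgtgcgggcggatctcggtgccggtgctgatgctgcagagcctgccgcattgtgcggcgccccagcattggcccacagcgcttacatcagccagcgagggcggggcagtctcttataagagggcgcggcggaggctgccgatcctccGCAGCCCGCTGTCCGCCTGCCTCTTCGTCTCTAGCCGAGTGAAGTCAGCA
Ina: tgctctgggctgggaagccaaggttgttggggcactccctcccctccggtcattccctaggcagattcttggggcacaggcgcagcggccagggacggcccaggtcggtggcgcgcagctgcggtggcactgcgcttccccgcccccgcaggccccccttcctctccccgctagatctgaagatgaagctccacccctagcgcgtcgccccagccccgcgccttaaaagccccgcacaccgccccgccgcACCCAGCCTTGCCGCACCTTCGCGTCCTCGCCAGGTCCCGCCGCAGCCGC
The core letters of the m6A consensus, GGAC, were searched in the 300 bases on both strands, with no overlap between matches possible. On the sense strand, they stood in the windows of Ina, Map1b and Agtpbp1, once in each, and not in those of Tubb3 and Map2. None of the 5 windows held them on the sense strand within the 50 transcribed bases. On the other strand, where they read GTCC, the windows held 2 matches in Ina, 3 in Map1b, 1 in Agtpbp1, 2 in Tubb3 and 0 in Map2. Within the transcribed bases this strand held 2 of them in Ina and 1 in Tubb3. Since m6A is a mark on mRNA, matches before the RefSeq start or on the other strand carry no information on m6A of these transcripts. Over 33469 windows of the same length, 66.2% held GGAC on the sense strand, 18.5% in the transcribed 50 bases and 87.3% on either strand. The Tubb3 window had 67.3% G and C and the Ina window 71.7%, against a median of 51.7% over all windows.

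At 12 h after TON, none of the 10 transcripts passed the test in the input libraries. Of the 10, 5 had a positive and 5 a negative log2 difference, with a median of 0.002, beside 0.06 over all 15900 genes tested. Calls were rare over the whole table as well: 7 genes (6 higher and 1 lower, 0.044%) passed limma on log2(FPKM + 1) at an adjusted p under 0.05, with Benjamini-Hochberg adjustment over all genes tested. No member had an unadjusted p under 0.05, and none was separated between the groups, while 10.8% of all genes had every TON value above every sham value and 5.33% every TON value below. In a retina, fewer cells of a type and less RNA per cell cannot be told apart.

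**Figure D1:**
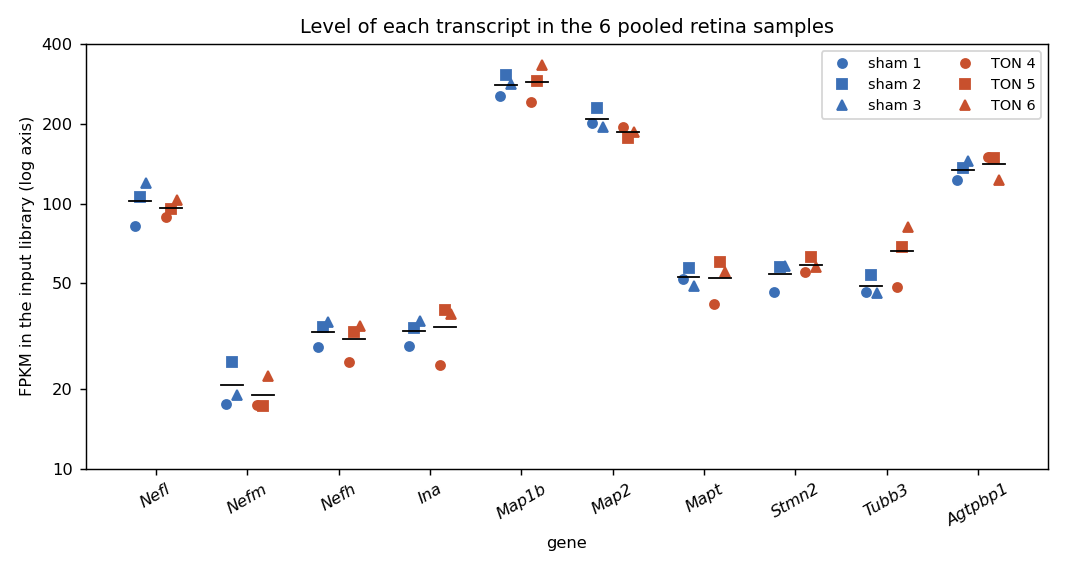
FPKM (log axis) of the 10 genes in each input library, with blue points for sham 1 to 3, orange points for TON 4 to 6 and a black line at each group mean. The 2 groups overlap for each gene, and the levels run from 17.2 FPKM (Nefm in TON 5) to 332 FPKM (Map1b in TON 6).

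Nefl, the light subunit on which the others assemble, measured 82.3, 106 and 119 FPKM in sham 1 to 3 and 89.2, 95.8 and 103 FPKM in TON 4 to 6. All 3 TON values lay inside the sham range, whose lowest value is that of sham 1. The difference was -0.08 on the log2 scale (SE 0.14, 95% interval -0.41 to 0.25, limma adjusted p = 0.856). Nefm, the medium subunit, measured 17.5, 25.3 and 19.0 FPKM in sham and 17.3, 17.2 and 22.3 FPKM in TON. Sham 2 was highest, and TON 4 and TON 5 lay just under sham 1. Its log2 difference was -0.11 (SE 0.18, limma adjusted p = 0.839).

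Nefh, the heavy subunit with the long phosphorylated tail, measured 28.7, 34.2 and 35.7 FPKM in sham and 25.3, 32.9 and 34.6 FPKM in TON, a log2 difference of -0.09 (SE 0.15, limma adjusted p = 0.840). Ina, alpha-internexin, measured 29.1, 33.9 and 36.0 FPKM in sham and 24.6, 39.6 and 38.2 FPKM in TON, a log2 difference of 0.02 (SE 0.19, limma adjusted p = 0.977). Both were lowest in TON 4 and next lowest in sham 1, and the groups overlapped. For the 4 subunits the limma intervals reached from 0.698-fold to 1.38-fold, so changes within these bounds remain compatible with the values of the 3 pools a group. The size of change that the test could detect was not computed. The log2 differences of Nefl, Nefm and Nefh were negative in the main comparison, yet that of Nefl was 0.04 without sham 3, that of Nefm 0.04 without sham 2 and that of Nefh 0.04 without TON 4. That of Ina turned to -0.06 with median centring and to -0.10 without TON 5.

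The proportions of the 4 subunits ranged less over the libraries than their levels. Nefl made up 51.6% to 57.0% of the summed FPKM of the 4 subunits, Nefh 16.2% to 18.2%, Ina 15.7% to 21.4% and Nefm 9.03% to 12.7%. Each of the 4 shares overlapped between the groups. The ratio of Nefl to Nefh was 2.87, 3.11 and 3.34 in sham and 3.52, 2.91 and 2.99 in TON, and that of Nefl to Nefm was 4.70, 4.19 and 6.29 in sham and 5.15, 5.57 and 4.63 in TON. As a description over the 6 libraries, which share their scaling, log2 levels of Nefh went with those of Ina (Pearson r = 0.91), Map1b (r = 0.86) and Nefl (r = 0.81). The remaining pairs of subunits had lower values: 0.60 for Nefl and Ina, 0.57 for Nefm and Nefh, 0.52 for Nefl and Nefm and 0.34 for Nefm and Ina. Among the 8043 genes that reached 10 FPKM on average, the patterns most like Nefl were those of Zfp511 (r = 0.99), the gene listed as ENSRNOG00000045703 (r = 0.99) and Lsm14b (r = 0.98). For Nefm they were Mab21l1, Dnajb14 and Dok6 (r = 0.98, 0.98 and 0.97), and for Nefh they were Ncoa2, Rph3a and Pura (r = 0.99, 0.99 and 0.98). Picked as the highest of 8043 correlations over 6 libraries, these values carry no test and do not show shared regulation.

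Map1b, which binds and stabilises microtubules in axons, was the most abundant member, at 254, 305 and 283 FPKM in sham and 241, 290 and 332 FPKM in TON. TON held both the lowest and the highest value. The log2 difference was 0.03 (SE 0.13, limma adjusted p = 0.955), and it was -0.05 with median centring. Map2, the dendritic microtubule-associated protein, measured 201, 230 and 195 FPKM in sham and 195, 176 and 187 FPKM in TON. The highest TON value, in TON 4, exceeded the lowest sham value, in sham 3, by less than 1 FPKM. Its log2 difference of -0.16 (SE 0.10, 95% interval -0.38 to 0.06, limma adjusted p = 0.609) was the most negative of the 10 and kept its sign in all 13 alternatives, with adjusted p between 0.473 and 0.848.

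Mapt, which encodes tau, measured 52.0, 57.1 and 48.9 FPKM in sham and 41.8, 60.4 and 55.2 FPKM in TON, a log2 difference of -0.02 (SE 0.15, limma adjusted p = 0.976). As for Map1b, TON held the lowest and the highest value, and the difference was 0.13 without TON 4. Stmn2, a stathmin that binds tubulin dimers and is needed for axon growth, measured 46.4, 57.9 and 58.2 FPKM in sham and 55.4, 62.8 and 57.6 FPKM in TON. Apart from the low value of sham 1, the groups lay together (log2 difference 0.12, SE 0.12, limma adjusted p = 0.748), and without sham 1 the difference was 0.01.

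Tubb3, the beta-tubulin of neurons, had the most positive log2 difference of the 10. It measured 46.5, 53.6 and 46.2 FPKM in sham and 48.4, 68.6 and 81.9 FPKM in TON, so that TON 5 and TON 6 lay above all sham samples and TON 4 lay between them. The group means were 48.8 ± 4.20 and 66.3 ± 16.9 FPKM (SD, n = 3 each), with a log2 difference of 0.41 (SE 0.18, 95% interval -0.02 to 0.83) that did not pass the test (limma unadjusted p = 0.0579, adjusted p = 0.503). Leaving out each sample gave log2 differences from 0.24 to 0.61, with the lowest adjusted p of all alternatives at 0.201. Agtpbp1, the carboxypeptidase that shortens polyglutamate chains on tubulin and whose loss causes Purkinje cell degeneration in mice, measured 122, 136 and 145 FPKM in sham and 150, 149 and 123 FPKM in TON. TON 6 fell to the level of sham 1, and the log2 difference was 0.06 (SE 0.11, limma adjusted p = 0.856; -0.02 with median centring).

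**Figure D2:**
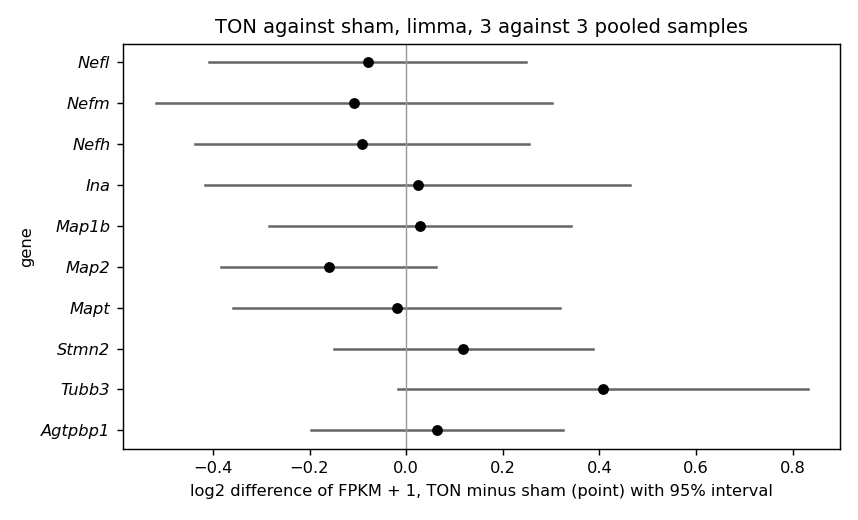
Log2 difference of FPKM + 1 between 3 TON and 3 sham samples for each gene (point) with its 95% interval from limma (line). The intervals of all 10 genes include 0, with Tubb3 at 0.41 (-0.02 to 0.83) and Map2 at -0.16 (-0.38 to 0.06) as the extremes.

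Around the members, 100 related genes in 6 lists were read off the same fit: 97 were in the table, 93 were tested and 1 was called (0.044% of all genes tested were). The called gene was Gfap, the intermediate filament of astrocytes and of reactive Muller glia, listed with other intermediate filaments and linkers. It measured 10.1, 7.28 and 9.58 FPKM in sham and 39.1, 36.5 and 31.0 FPKM in TON. Every TON value was at least 3.06 times the highest sham value (log2 difference 1.87, SE 0.16, limma adjusted p = 0.0102). The call was lost with no filter on low values and without sham 1, TON 4 or TON 5. The median log2 difference of the related genes was 0.06, as over all genes.

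No gene of the other 5 lists passed. Of 10 tubulins tested none passed, with a median log2 difference of 0.16. Tuba1a, the main neuronal alpha-tubulin, measured 351 to 415 FPKM in sham and 389 to 432 FPKM in TON, and Tubb5 279 to 309 and 273 to 351 FPKM. Of 25 other microtubule-associated and stathmin proteins none passed (median -0.05). Stmn1 measured 180 to 282 FPKM in sham and 154 to 193 in TON, and Bin1 166 to 173 and 148 to 178 FPKM. Both pairs of ranges overlapped.

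None of 24 tubulin-modifying and severing enzymes passed (median 0.01). Ttll5, a ligase that adds glutamates to tubulin, measured 80.0 to 94.9 FPKM in sham and 56.9 to 79.9 FPKM in TON. The gap between the groups was less than 0.1 FPKM (log2 difference -0.41, SE 0.14, limma adjusted p = 0.408). Sirt2, a deacetylase of alpha-tubulin, measured 60.8 to 71.5 and 74.2 to 80.6 FPKM (limma adjusted p = 0.511), which was also a separation in the opposite direction without a call. Neither the 4 folding cofactors, such as Tbcc (38.2 to 54.9 and 38.1 to 55.8 FPKM) and Tbca (29.5 to 35.7 and 26.7 to 38.1 FPKM), nor the 20 kinases and phosphatases of tau and neurofilaments, such as Ppp2ca (102 to 120 and 116 to 131 FPKM) and Gsk3b (95.4 to 115 and 82.3 to 110 FPKM), held a called gene.

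Markers of cells that carry these proteins were summed beside them. The 10 ganglion cell markers summed to 461 to 513 FPKM in sham and 476 to 570 FPKM in TON, with overlap. The 8 amacrine cell markers summed to 289, 323 and 280 FPKM in sham 1 to 3 and 251, 365 and 375 FPKM in TON 4 to 6, also with overlap. The 6 horizontal cell markers summed to 161 to 163 FPKM in sham and 142 to 153 FPKM in TON, without overlap, and none of them was called. Markers of rods and cones (20085 to 20185 and 20572 to 21004 FPKM) and of bipolar cells (871 to 934 and 946 to 1005 FPKM) were separated in the other direction. The part of these shifts in the levels of the 10 genes was not tested.

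Peaks were called on every one of the 10 transcripts in at least 1 list, 107 peaks in all, which merged into 30 regions when peaks sharing at least 1 base were joined. Regions with a peak in every TON list and in none of the sham lists are called gained, and those with the reverse pattern lost. Of the 30 regions, 8 had a peak in all 6 lists (against 21.4% of all 24605 regions), 3 were gained, 0 were lost and 7 were found in 1 list. The gained regions lay in Map2, Mapt and Agtpbp1, so 3 of the 10 genes held 1. Over all regions 1.67% were gained, and of the 9329 genes with a peak 4.13% held a gained and 4.48% a lost region. The members were chosen with these gained regions known, and their count carries no test.

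**Figure D3:**
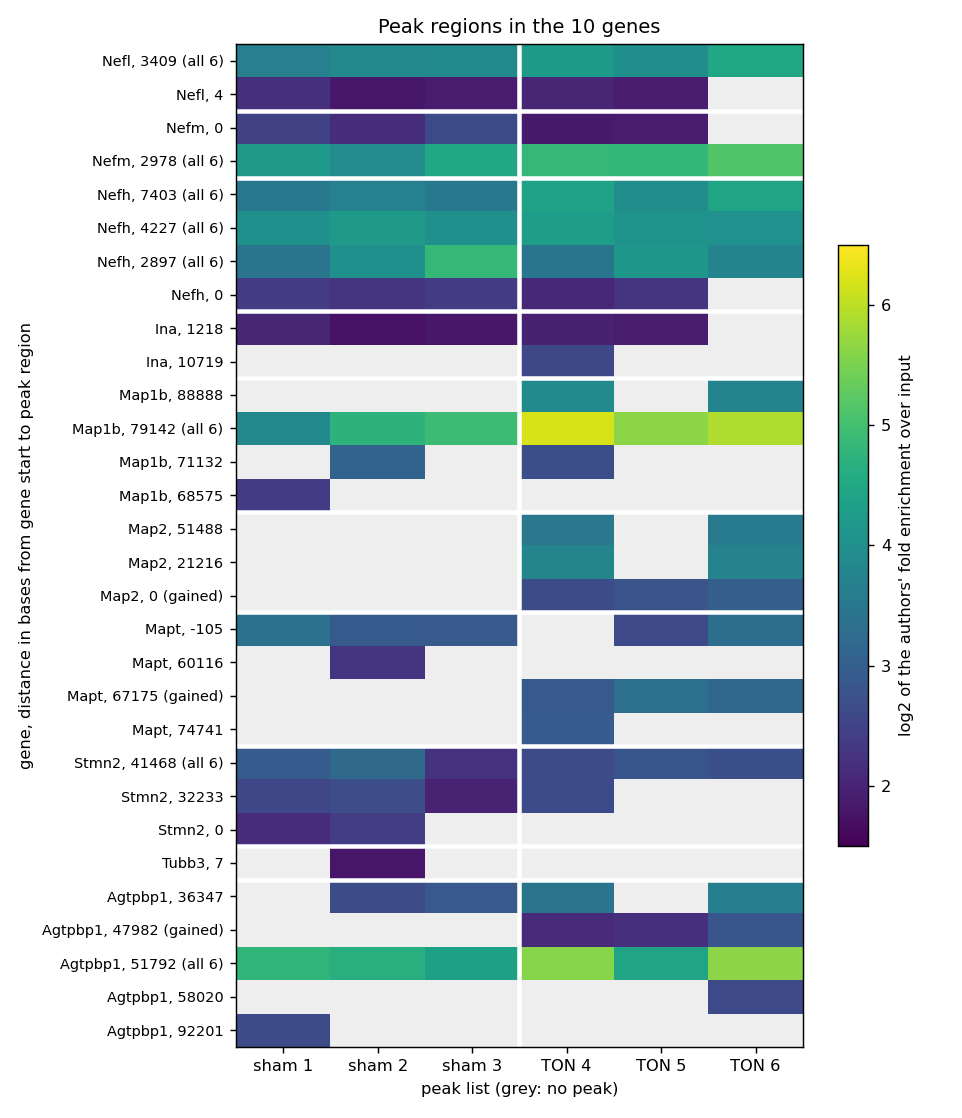
Each row is a peak region, named by gene and by its distance in bases from the gene start, and each column is a peak list. Colour gives the log2 of the fold enrichment over input and grey means no peak. The 4 neurofilament genes lack the region nearest the gene start in TON 6 alone, the Map2 regions stand only in TON lists, and the region of Map1b in all 6 lists is the brightest in each TON list and in sham 2 and sham 3, while that of Agtpbp1 is the brightest in sham 1.

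Nefl and Nefm each carried 2 regions, near the opposite ends of the gene. Nefl lies on the minus strand of chromosome 15 (46793526 to 46797403, 1-based, in the files' build, whose name the sources used here do not give). Its region at the gene end (chr15:46793526-46793994, 469 bases) was called in all 6 lists, with a fold enrichment of 12.8, 14.4 and 14.7 in sham and 18.8, 16.0 and 22.1 in TON. Every TON value lay above every sham value as deposited. Its region at the gene start (chr15:46796288-46797399, 1112 bases) was called in 5 lists at 4.50, 3.56 and 3.73 in sham and 4.09 and 3.67 in TON 4 and TON 5, and had no peak in TON 6.

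Nefm, on the plus strand of the same chromosome, showed the same layout. Its region at the gene end (chr15:46739800-46741631) ran 490 bases past the end of the gene in the expression table and had a fold enrichment of 18.2, 15.0 and 22.7 in sham and 28.6, 27.9 and 35.2 in TON. The region at the gene start (chr15:46736822-46738010) was called at 5.64, 4.42 and 6.14 in sham and 3.64 and 3.73 in TON 4 and TON 5. Again TON 6 had no peak there. As deposited, TON 4 and TON 5 lay under all sham values at the start, and every TON value at the end lay above them. Among all regions in all 6 lists, 25.4% had every TON value above every sham value as deposited. After each list's median was subtracted, the Nefm values at the end overlapped between the groups. The values at the start, with no peak in TON 6, were neither centred nor set against a share over all regions.

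Nefh, on chromosome 14, was the only subunit with more than 2 regions. Besides the region at its end (chr14:85859193-85861775, 2583 bases, fold enrichment 11.5, 13.0 and 11.4 in sham and 20.9, 15.6 and 21.4 in TON) and that at its start (chr14:85868244-85869178, 5.24, 4.77 and 5.21 in sham and 4.22 and 4.77 in TON 4 and TON 5), it carried 2 short ones inside the gene. The first of these (chr14:85864827-85864951) had a fold enrichment of 16.0, 18.4 and 16.2 in sham and 19.8, 16.8 and 16.3 in TON. The other (chr14:85866082-85866281) ran from 10.8 in TON 4 to 28.5 in sham 3. Both were in all 6 lists, whereas the region at the start was missing from TON 6. Ina carried a region that began 1218 bases into the gene (chr1:274213233-274214371), at 4.09, 3.34 and 3.54 in sham and 3.87 and 3.66 in TON 4 and TON 5, and again no peak in TON 6. The false discovery rates of its peaks ran from 17.6% in sham 1 to 100% in sham 3. Those of the start regions ran from 31.65% to 76.3% in Nefh, from 7.67% to 34.8% in Nefl and from 18% to 36.8% in Nefm. A further Ina region 25 bases from the gene end was called in TON 4 alone, with a false discovery rate of 45.8%.

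In the 3 genes with a region at both ends, the fold enrichment at the end exceeded that at the start in each of the 15 pairs from 1 gene and 1 list, by 2.20 to 7.85 times (median 3.69). Over these pairs the start regions lay between 3.56 and 6.14 and the end regions between 11.4 and 28.6, with TON 6 left out since it had no start peak. Over 1045 genes with a peak within 200 bases of both ends in the same list, the median ratio was 1.10. Of the 173 genes with both in at least 5 lists, 29.5% had the higher value at the end in every such list, as Nefl, Nefm and Nefh did. Within their lists, the fold enrichment at the start lay between percentiles 2.43 and 15.1 for Nefl, 1.84 and 38.6 for Nefm and 5.25 and 27.6 for Nefh. Start regions of other members ranked from percentile 2.08 (Tubb3, in 1 list) to between 34.9 and 81.3 (Mapt).

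**Figure D4:**
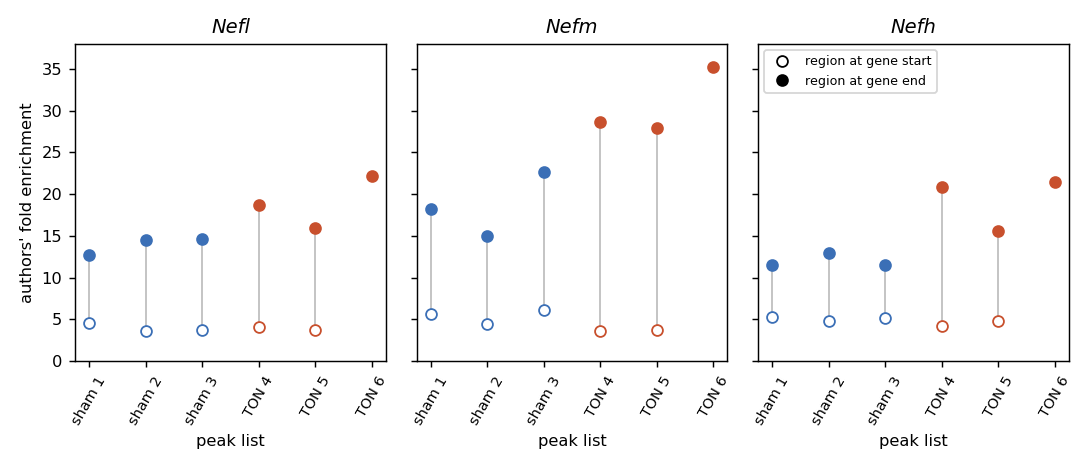
Fold enrichment over input of the region at the gene start (open points) and at the gene end (filled points) of Nefl, Nefm and Nefh in each list, blue for sham and orange for TON. In each list with both regions the end lies above the start, and TON 6 has no open point.

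TON 6 thus lacked 4 of the 5 member regions that had a peak in 5 lists, and TON 4 lacked the other, a region beginning 105 bases before the Mapt gene. Over all 2693 regions found in 5 lists, 22.5% were missing from TON 6, 26.3% from sham 1, 23.7% from sham 3 and 7.72% to 10.2% from each of the others. TON 6 was also the list with the fewest peaks (12424) and the highest median fold enrichment of all peaks (9.63). The part of these list differences in the missing regions was not tested. Of the 23 member regions found in more than 1 list, 22 had identical bounds in each list, as had 85.8% of all such regions. The widths of these 22 regions thus did not vary between the lists that held them. Whether such bounds mark the extent of the m6A signal was not tested.

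Map2 was the only member with more peaks in every TON list than in any sham list, a pattern of 2.98% of genes with a peak. It had 0 peaks in each sham list and 3, 1 and 3 in TON 4 to 6 (p = 0.1 by an exact permutation test, two-sided, the least that 3 against 3 allow). The gained region covered the first 79 bases of the gene (chr9:73922599-73922677, minus strand), with a fold enrichment of 6.32, 7.08 and 8.10, a score of 98.8, 503 and 1376 (minus 10 times log10 of p) and a false discovery rate of 49.9%, 19.1% and 20.5% in TON 4 to 6. TON 4 and TON 6 shared the other peaks. These were a region of 3744 bases (chr9:73867446-73871189, fold enrichment 11.3 and 11.8) and one of 285 bases (chr9:73901177-73901461, fold enrichment 13.7 and 13.3). In TON 4 and TON 6 the false discovery rates were 7.43% and 13.7% for the longer region and 39.9% and 37.0% for the shorter. The input level of Map2 overlapped between the groups. Whether the start of the RefSeq window of Map2 is the start used in the files was not tested.

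Mapt carried its gained region 67175 bases into the gene (chr10:92118034-92118089, plus strand, 56 bases). Its fold enrichment was 7.43, 10.2 and 8.99 in TON 4 to 6, with scores of 72.5, 195 and 75.0 and false discovery rates of 55.4%, 33.4% and 75.4%. The region before the gene start (chr10:92050754-92050884) was called in all lists but TON 4, at 10.3, 7.51 and 7.43 in sham and 6.05 and 9.89 in TON 5 and TON 6. Its false discovery rates ran from 22.9% in sham 1 to 100% in sham 3. Mapt had 1, 2 and 1 peaks in sham 1 to 3 and 2 in each TON list, so the numbers overlapped.

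Agtpbp1 had its gained region 47982 bases into the gene (chr17:7783226-7783342, plus strand). The fold enrichment was 4.25, 4.51 and 7.11 in TON 4 to 6, with scores of 80.5, 326 and 644 and false discovery rates of 53.6%, 25.1% and 31.2%. This region was near a much stronger one in all 6 lists (chr17:7787036-7787727), which had a fold enrichment of 27.4, 24.7 and 20.2 in sham and 48.0, 21.4 and 49.6 in TON. TON 4 and TON 6 lay above all sham lists there and TON 5 lay among them. Agtpbp1 had 2 peaks in each sham list and 3, 2 and 4 in TON.

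The 3 gained regions depended on how peaks were selected. Of the 9 peaks that make them up, 4 had a score under 100, and with a score of at least 100, or within the top 50% of each list by score, no member region was gained. With a peak in 2 of 3 lists enough, 6 were gained and 1 was lost. Without TON 5 there were 6 gained, since the longer regions of Map1b and Map2 shared by TON 4 and TON 6 were added. Leaving out any other list gave 3, and 1 region was lost without sham 3 and 1 without TON 4. With a fold enrichment of at least 5 there were 2.

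Stmn2, in contrast, had 3, 3 and 2 peaks in sham and 2, 1 and 1 in TON (exact permutation test, p = 0.2), which overlapped at 2, whereas 3.54% of genes had fewer peaks in every TON list. Its region in all 6 lists (chr2:115173554-115173745) had a fold enrichment of 7.71, 9.33 and 4.70 in sham and 6.25, 7.17 and 6.59 in TON. False discovery rates there ran from 21.7% in sham 1 to 62.6% in sham 3. A second region (chr2:115182808-115182980) was called in the 3 sham lists and TON 4, and one of 45 bases at the gene start (chr2:115215169-115215213) in sham 1 and sham 2. False discovery rates ran from 34% to 100% in the second region and from 40.8% to 75.3% in that at the gene start. Tubb3 had 1 peak in all, 7 bases from the gene start, in sham 2 (chr19:66931880-66931985, fold enrichment 3.47, score 50.3, false discovery rate 80.2%). The Tubb3 window printed above shows the first 50 transcribed bases of the RefSeq start, which may or may not be the start of the files' transcript.

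Of the 8 member regions in all 6 lists, that of Map1b had the highest mean fold enrichment over the lists (42.4) and differed most between the groups. In the sham lists alone its mean of 23.8 was close to the 24.1 of the Agtpbp1 region. It is a region of 6481 bases (chr2:48844861-48851341, minus strand) that ends 7737 bases before the gene end. Its fold enrichment was 14.5, 26.6 and 30.3 in sham 1 to 3 and 73.5, 49.2 and 60.2 in TON 4 to 6. The lowest TON value was 1.62 times the highest sham value. A further region of 4472 bases at the gene end (chr2:48837124-48841595) was called in TON 4 and TON 6 alone, at 14.8 and 13.4. The numbers of Map1b peaks overlapped, with 2, 2 and 1 in sham and 3, 1 and 2 in TON.

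As deposited, 4 of the 8 member regions in all 6 lists had every TON value above every sham value: the end regions of Nefl, Nefm and Nefh and the Map1b region. The share among all 5261 such regions was 25.4%. Whole lists differed: their median fold enrichment was 8.72, 9.86 and 9.33 in sham and 12.8, 9.96 and 13.1 in TON, with TON 4 and TON 6 high, and the median log2 difference over all regions was 0.39. After subtracting each list's median log2 value, 2 of the 8 stayed separated upward (Map1b and the Nefh end region, background 13.3%) and 1 downward (the Nefh region at base 85864827, background 10.5%).

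None of the 8 member regions passed limma on these centred values, where 0.285% of all regions did. The centred log2 difference of the Map1b region was 1.05 (SE 0.32, 95% interval 0.37 to 1.74, limma unadjusted p = 0.00497, adjusted p = 0.115), the 55th highest of 5261. Uncentred it was 1.41 (limma adjusted p = 0.0569), and leaving out each list gave centred values from 0.78 to 1.26 with adjusted p of 0.0736 or more. The centred differences of the end regions of Nefl, Nefm and Nefh were 0.08, 0.37 and 0.32 (limma adjusted p = 0.885, 0.467 and 0.477). That of Nefl turned to -0.01 with quantile normalization. That of Nefm was 0.18 without sham 2, and that of Nefl 0.03 without TON 6. The other 4 ranged from -0.67 in Nefh to 0.27 in Agtpbp1. The former was -0.31 without sham 3, and the latter 0.14 without TON 6 and 0.55 without TON 5. The read depth behind the ratios is unknown, and the input level of Map1b itself differed by 0.03 on the log2 scale.

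**Figure D5:**
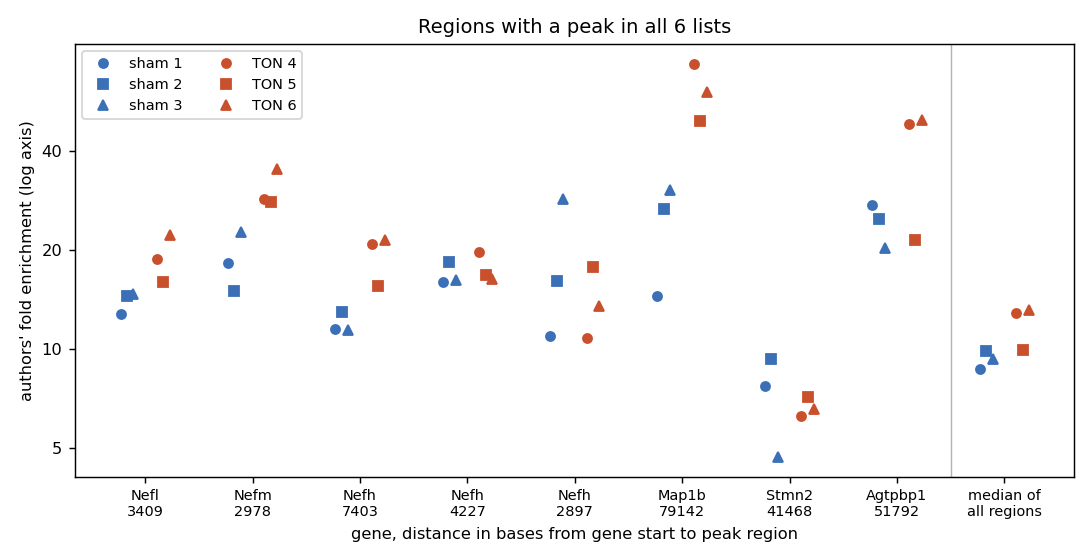
Fold enrichment over input (log axis) of the 8 member regions found in all 6 lists, named by gene and distance in bases from the gene start, with blue points for sham and orange for TON. The last position gives the median of all 5261 such regions in each list, which is 12.8 in TON 4 and 13.1 in TON 6 against 8.72 to 9.96 in the other lists, and the Map1b region stands at 49.2 to 73.5 in TON against 14.5 to 30.3 in sham.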

How the data were processed

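The authors trimmed the input reads with cutadapt 1.9.3, aligned them with HISAT2 2.0.4 and estimated expression with Cufflinks and Cuffdiff. The deposited table gives FPKM per gene and library. A second set of deposited columns holds a signal, which looks like fragment numbers after scaling of the libraries to one another. Between 98.3% and 98.6% of its low values were whole multiples (within 0.1) of the value of 1 fragment, from which depth was estimated. The deposited peak lists, called by the authors with MACS in each sample, give for each peak a false discovery rate in percent, a fold enrichment, which is a ratio over input, a length in bases and a score equal to minus 10 times log10 of the p-value. False discovery rates are not on 1 scale between lists. The end region of Nefl, with a score of 3100 in each list, had 3.46%, 8.54% and 10.8% in sham 1 to 3 and 7.43%, 8.52% and 13.7% in TON 4 to 6. The methods name a human build for the RNA-seq although the animals are rats, and kit names differ between the labels and the methods for the inputs. All per-library columns were used. The authors' comparison columns hold fold changes and p-values and were not used.

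FPKM were tested with limma 3.58.1 in R 4.3.3 on log2(FPKM + 1) with an intensity trend, for the 15900 genes whose mean reached 0.1 FPKM in sham or TON, with Benjamini-Hochberg adjustment. Differences are on that scale, which understates changes of low genes. Fold enrichments of the 5261 regions in all 6 lists were tested with limma after centring on each list's median log2 value, a test chosen after the data were seen. Peaks sharing at least 1 base were merged in Python 3.11.15 with pandas 2.3.3 and NumPy 2.4.6. Exact permutation tests, two-sided, compared numbers of peaks and of bases covered by peaks. Peaks covered 2998, 3004 and 3021 bases of Nefm in sham and 2976, 2966 and 1832 in TON (exact permutation test, p = 0.1). For Map2 they covered 0 bases in each sham list and 4108, 79 and 4108 in TON (exact permutation test, p = 0.1). Bases overlapped between the groups for the other members, and the share of separated genes over all genes was not computed. Both limma fits were tested on simulated data, with shifts added to features above the median level. Those shifts were larger than any member difference, so the simulations cannot tell whether differences of the size seen here would be called.

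All members are named. In each related list the genes called are named (at most 4), or else the 2 of highest mean FPKM. For Nefl, Nefm and Nefh the 3 genes with the highest Pearson r are named. Members and lists were chosen with earlier results of these data known. Alternatives were other pseudocounts, filters, scalings, stricter peaks, other overlaps and leaving out each sample. A genome of the files' build was not used here, so no peak sequence is printed.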

Additional observations from a re-analysis of the deposited data

How the results depend on the processing

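No member was called under any of the 13 alternatives of the expression fit. The 7 genes called over the whole table became 2 with no filter and 44 with scaled fragments in place of FPKM, and 3 to 15 when each sample was left out in turn (15 without sham 3, 3 without sham 1). The 1 related gene called became 0 with no filter, 2 with scaled fragments and 0 to 1 when each sample was left out. The log2 differences of Ina, Map1b and Agtpbp1 were -0.057, -0.052 and -0.017 with median centring, and that of Ina was -0.0098 with quantile normalization. When each sample was left out, the log2 differences ranged from -0.23 to 0.037 (Nefl), -0.23 to 0.042 (Nefm), -0.18 to 0.042 (Nefh), -0.096 to 0.24 (Ina), -0.081 to 0.15 (Map1b), -0.13 to 0.13 (Mapt) and -0.0027 to 0.16 (Agtpbp1). Those of Map2 (-0.21 to -0.089), Stmn2 (0.013 to 0.17) and Tubb3 (0.24 to 0.61) kept their sign, and Stmn2 was at 0.037 with median centring.

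The 3 gained member regions became 0 in the top 50% of each list by score, 0 with a score of at least 100, 1 with an overlap of at least 100 bases (the Map2 and Mapt regions are shorter than that) and 6 with a peak in 2 of the 3 lists. They numbered 3 to 6 when each list was left out. The 0 lost regions became 1 with a score of at least 100 and 1 with a peak in 2 of the 3 lists, and ranged from 0 to 1 when each list was left out. Regions in all remaining lists ranged from 8 to 12. The difference in peaks per list in Mapt turned to -0.33 with a score of at least 100, and that in Map1b ranged from -0.17 to 0.83 when each list was left out. In alternatives added once the data had been seen, no member region was called on fold enrichment with no centring, with quantile normalization or without any 1 list. The Nefh region starting at base 85864827 turned to 0.059 with no centring and the Nefl region at its gene end to -0.013 with quantile normalization. Leaving out each list gave 0.032 to 0.13 for the end region of Nefl, 0.18 to 0.52 for that of Nefm, -0.99 to -0.31 for the Nefh region starting at base 85866082 and 0.14 to 0.55 for Agtpbp1. The causes were not tested. Count models on recovered fragments (edgeR and DESeq2) were not run, because the scaled signal did not pass as whole reads. No paired analysis was possible because sham 1 to 3 and TON 4 to 6 share no replicate number, and the enriched and input libraries of a sample meet only within the authors' fold enrichment. With 3 pools a group, expression changes inside the interval of each gene remain compatible with the data, and the size of change that the test could detect was not computed.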
